A study of Mus musculus with 6 samples.

Results

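The SLAM family receptors and SAP, the adaptor that most of them signal through, were examined in T follicular helper (Tfh) cells. These are the CD4+ T cells that support B cells in germinal centers. Members were the rows whose gene symbol was 1 of 9 names, and these gave 8 of the 14744 genes measured, because Ly108 is an older name of Slamf6. All 8 passed the filter on low values, a normalized read count of at least 10 in at least 3 libraries, which left 11296 genes for testing. Tfh cells, sorted as CD4+ B220- CD44+ PD-1+ CXCR5+ cells, came from the mesenteric lymph nodes (MLNs) of C57BL/6 mice (a C57BL/6J background in the study's methods) and were sequenced as 3 WT libraries and 3 libraries from Bach2fl/flCd4-cre mice (labelled Bach2-cKO), with between 10000 and 30000 cells a sample. The Cd4-Cre transgene deletes the floxed Bach2 alleles in T cells from the thymus on, so CD8 T cells and regulatory T cells of these mice are affected as well. The study designates Cd4-Cre littermates as WT, so that by its definition both groups carry the Cre transgene. The labels do not say that each library came from a separate mouse, so p-values measure the spread between these libraries. Library totals ran from 7361229 to 8135325 normalized read counts, which are read counts per gene divided by a size factor of the library. Recovered depth was 6585742 and 7823717 reads in WT replicates 2 and 3, and 5045131, 10987752 and 7197242 reads in replicates 1, 2 and 3 labelled Bach2-cKO. WT replicate 1 stood apart, with reads for 11648 genes where the other 5 libraries had 13111 to 13567, and fold changes of the 8 genes were also computed without it.

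SLAM receptors are immunoglobulin-like proteins on the surface of hematopoietic cells, and most of them bind the same receptor on a neighbouring cell, so that a T cell and a B cell that carry the same receptor engage each other through it. Their cytoplasmic tails hold tyrosine switch motifs to which the small SH2 protein SAP binds, and SAP recruits the kinase Fyn or keeps inhibitory phosphatases away. In Tfh cells SAP is known for stabilising contact with B cells, without which germinal centers fail, while CD48 differs from the rest of the family in that it has a lipid anchor in place of a tail and serves as a ligand.

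Bach2, the gene targeted by the deletion, was read first as a check of the labels. Its normalized read counts were 233, 222 and 105 in WT replicates 1, 2 and 3, and 399, 763 and 591 in replicates 1, 2 and 3 labelled Bach2-cKO. Every library labelled Bach2-cKO thus had more Bach2 reads than every WT library, against the label. The fold change on the log2(value + 1) scale was 1.68 (SE 0.37), and limma, with Benjamini-Hochberg adjustment over all tested genes, gave an adjusted p = 0.141. Counts are per gene, so that reads from exons outside the deleted ones are still counted, and the genotype cannot be read from them. Bach2 is known to restrain type 2 cytokine genes in T cells, and the type 2 genes Il4 and Gata3 were higher without overlap in the libraries labelled Bach2-cKO, with log2 fold changes of 1.35 and 1.48 (adjusted p = 0.141 for each), while Foxp3 was lower without overlap, at -1.76 (adjusted p = 0.141). Of all tested genes, 14.6% were higher and 12.2% lower without overlap, and no tested gene had a smaller adjusted p. The study itself reported these directions from the same libraries, so they are not a separate check of the labels. The genotype thus stays unchecked here, and directions below are those of the libraries labelled Bach2-cKO. Each of 8 T cell markers and each of 11 Tfh markers, Cxcr5 and Pdcd1 among them, was above 0 in every library, and so were Lyz2, Cst3, Cd8b1 and Cd79b of other cell types.

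Of the 8 genes, 6 had a lower and 2 a higher mean log2 value in the libraries labelled Bach2-cKO. The median log2 fold change of the 8 genes was -0.51, against 0.08 for all 11296 tested genes, of which 5111 were negative and 6185 positive. Slamf7, Cd48 and Slamf6 were lower at an unadjusted limma p under 0.05 (3 of 8, where the background over all tested genes was 10.2%), and 0 of 8 were higher (background 10.1%). That count of 3 was 1 without WT replicate 3 (background 791 of 11296 genes), without replicate 1 labelled Bach2-cKO (background 5.36%), or with no trend in the variance (background 7.83%), and 3 without WT replicate 1 (background 9.43%). Slamf7, Cd48 and Slamf6 were also the genes that were lower with no overlap between the groups (background 12.2%), and no gene was higher without overlap (background 14.6%). None of the 8 genes, and 0 of 11296 genes in all (0%), passed an adjusted p under 0.01 together with more than a 2-fold change in limma, and the smallest adjusted p among the 8 was 0.141. The study applied these thresholds to a DESeq2 fit of its read counts. It reported more genes past them, in each direction, than the main limma fit or DESeq2 gave here. A DESeq2 fit over all 6 libraries was not run, so the low counts here do not show that few genes differ. On the recovered reads of 5 libraries, edgeR and DESeq2 placed 0 of the 8 genes past both thresholds, where DESeq2 called 60 of all genes lower and 35 higher. DESeq2, run on these 5 libraries without WT replicate 1, placed Slamf7 and Cd48 under an adjusted p of 0.05 as lower (2 of 8, where the background was 1.95% of 10857 genes), with log2 fold changes of -1.48 (adjusted p = 0.0429) and -0.83 (adjusted p = 0.0389). An exact permutation test of 3 libraries against 3 has 0.1 as its smallest 2-sided p, so none was run for these genes. Libraries are pools of sorted cells, so fewer cells of a type and less RNA per cell cannot be told apart in these values. The sort did not use Foxp3. By flow cytometry, the study found a lower ratio of Foxp3+ follicular regulatory (Tfr) cells to Tfh cells in MLNs of Bach2fl/flCd4-cre mice.

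**Figure D1:**
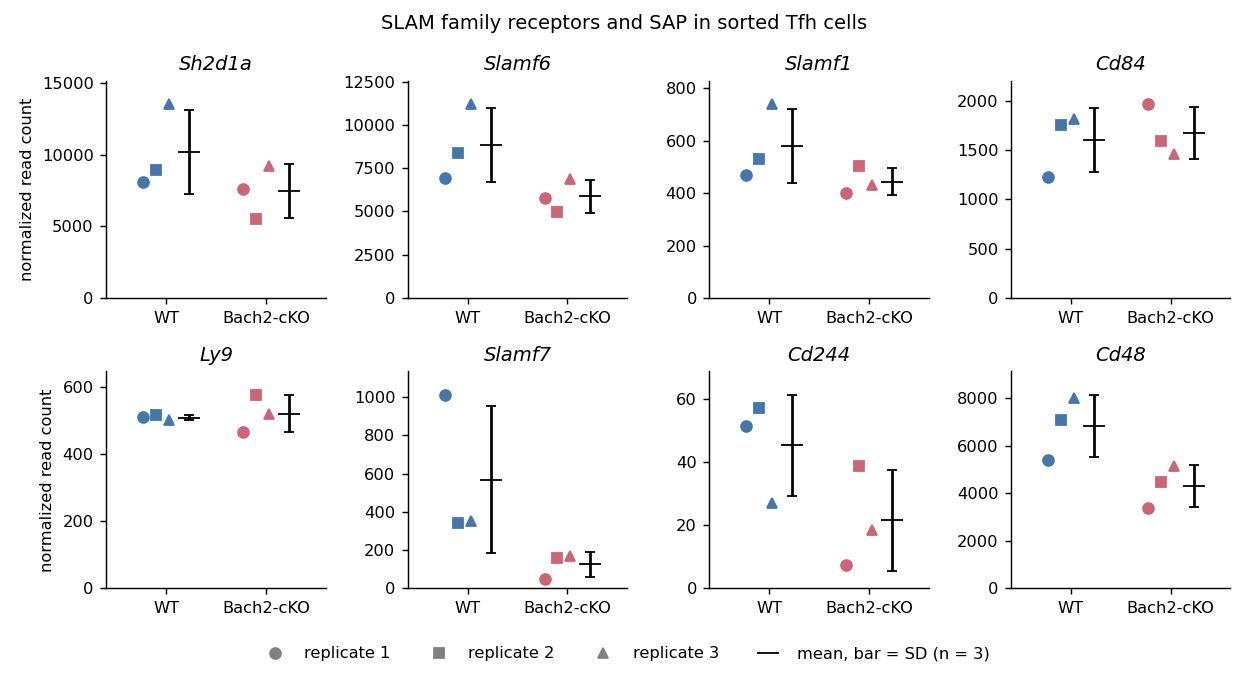
Normalized read counts (y axis, from 0) of SAP (Sh2d1a) and the 7 SLAM receptor genes in each library, by group, with symbols for replicates 1, 2 and 3 and a bar for the mean and SD of 3 libraries. The groups do not overlap for Slamf6, Slamf7 and Cd48, and overlap for the other 5 genes.

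The 7 receptor genes lie side by side on chromosome 1, from 171559193 to 171953170 in GRCm38, a stretch of 394 kb, while Sh2d1a lies on chromosome X. Promoters from RefSeq (GRCm38.p6) were matched for 6 of the 8 genes, with Ly9 and Sh2d1a without an entry. The 250 bases before the start of the 3 genes that were lower without overlap are printed to show what lies ahead of each, 5' to 3' on the strand of the gene, with capitals marking a match to TGANTCA, the AP-1 core, which also lies within a longer run, the core with TGC directly before it, that makes up most of the Maf recognition element Bach2 is known to bind. Slamf7 is read from chr1:171649000-171649249 on the minus strand, a window inside the span of the gene in GENCODE, in which another transcript starts farther upstream. Cd48 is read from chr1:171681742-171681991 and Slamf6 from chr1:171917212-171917461, both on the plus strand. Shorter windows around the core are printed for Cd84 (chr1:171839447-171839504, plus strand) and Cd244 (chr1:171559041-171559107, plus strand), whose groups overlapped.
Slamf7: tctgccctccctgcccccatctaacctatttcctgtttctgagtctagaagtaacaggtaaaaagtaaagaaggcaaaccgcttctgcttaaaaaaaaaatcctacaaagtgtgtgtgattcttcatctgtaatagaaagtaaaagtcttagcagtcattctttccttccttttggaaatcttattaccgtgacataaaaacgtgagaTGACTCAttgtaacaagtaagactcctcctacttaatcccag
Cd48: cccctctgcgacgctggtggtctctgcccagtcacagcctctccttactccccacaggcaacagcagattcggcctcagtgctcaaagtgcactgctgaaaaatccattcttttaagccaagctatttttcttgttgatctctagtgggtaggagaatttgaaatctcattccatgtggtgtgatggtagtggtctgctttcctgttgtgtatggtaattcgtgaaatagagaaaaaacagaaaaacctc
Slamf6: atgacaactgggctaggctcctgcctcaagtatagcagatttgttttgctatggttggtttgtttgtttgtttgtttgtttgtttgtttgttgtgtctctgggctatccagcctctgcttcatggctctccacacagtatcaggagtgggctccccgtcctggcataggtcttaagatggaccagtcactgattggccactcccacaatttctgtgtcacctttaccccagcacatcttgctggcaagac
Cd84 window: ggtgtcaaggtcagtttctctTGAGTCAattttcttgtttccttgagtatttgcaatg
Cd244 window: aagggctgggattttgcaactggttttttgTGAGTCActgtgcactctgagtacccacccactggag

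On either strand, the AP-1 core was found in the windows of Slamf7 (42 bases before the start), Cd84 (229 bases) and Cd244 (122 bases), and not in those of Slamf1, Slamf6 and Cd48. Across all 32851 promoters of the same length, 2217 (6.75%) held the core. No window of the 6 genes held the core with TGC directly before it, which 116 promoters (0.353%) held. Log2 fold changes were -2.18, 0.07 and -1.24 for the 3 genes with the core (Slamf7, Cd84 and Cd244), and -0.66, -0.57 and -0.36 for the 3 without it (Cd48, Slamf6 and Slamf1). A match is a run of letters and not a measured site, and binding of Bach2 at these windows was not analysed here.

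Sh2d1a encodes SAP. It stood at 8077, 8969 and 13546 normalized read counts in WT replicates 1, 2 and 3, and at 7647, 5490 and 9236 in replicates 1, 2 and 3 labelled Bach2-cKO. WT replicate 3 was the highest library and replicate 2 labelled Bach2-cKO the lowest, and the groups overlapped, since replicate 3 labelled Bach2-cKO exceeded WT replicates 1 and 2. The means were 10197 ± 2934 and 7457 ± 1880 (SD, n = 3 each). The log2 fold change was -0.45 (SE 0.26, 95% confidence interval -1.03 to 0.14), with an adjusted limma p of 0.345. Leaving out 1 library at a time moved it from -0.62, without replicate 3 labelled Bach2-cKO, to -0.22, without WT replicate 3. The 3' end of Sh2d1a (chrX:42502453-42529330, plus strand) overlaps the annotated span of Tenm1 on the other strand, and reads of such partners cannot be told apart without strand.

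Slamf6, also called Ly108, is a self-binding receptor that signals through SAP in Tfh cells. Its WT libraries held 6957, 8375 and 11196 normalized read counts, and those labelled Bach2-cKO 5786, 4987 and 6873. All 3 libraries labelled Bach2-cKO were below all 3 WT libraries, although WT replicate 1 and replicate 3 labelled Bach2-cKO were separated by a small gap. The means were 8843 ± 2158 and 5882 ± 947 (SD, n = 3 each), and the second was 66.5% of the first. On the log2 scale the change was -0.57 (SE 0.23, 95% confidence interval -1.08 to -0.07), with adjusted p = 0.204. Its unadjusted p was no longer under 0.05 without WT replicate 2, WT replicate 3, or replicates 1 or 2 labelled Bach2-cKO, and the change was -0.39 without WT replicate 3. The unadjusted p was also over 0.05 with no trend in the variance, and under quantile normalization, where the change was -0.44. Slamf6 lies at chr1:171917515-171953170 on the plus strand, and the antisense gene Gm37065 overlaps it.

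Slamf1 is the self-binding receptor after which the family is named, and in T cells it is coupled to SAP and Fyn. WT libraries held 470, 529 and 739 normalized read counts, and the libraries labelled Bach2-cKO 401, 503 and 430. WT replicate 3 stood above the rest, and the groups overlapped. This gave a log2 fold change of -0.36 (SE 0.25, 95% confidence interval -0.92 to 0.19), with an adjusted limma p of 0.406, and it was -0.17 without WT replicate 3.

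Cd84 is a self-binding receptor that works beside Slamf6 in the contact of T cells and B cells. Its values were 1229, 1757 and 1816 normalized read counts in WT and 1966, 1590 and 1461 in the libraries labelled Bach2-cKO. Replicate 1 labelled Bach2-cKO was the highest library and WT replicate 1 the lowest, and the groups overlapped. Cd84 had a log2 fold change of 0.07 (SE 0.22, 95% confidence interval -0.42 to 0.57), with an adjusted limma p of 0.872, and its sign turned to -0.11 without WT replicate 1. Ly9, a self-binding receptor of T and B cells, had the narrowest spread of the 8 genes in WT, at 511, 516 and 501 normalized read counts, against 467, 578 and 519 in the libraries labelled Bach2-cKO. Those 3 values lay on both sides of the WT libraries. For Ly9 the log2 fold change was 0.03 (SE 0.21, 95% confidence interval -0.45 to 0.51), with an adjusted limma p of 0.954, and it was -0.05 without replicate 2 labelled Bach2-cKO. These intervals do not reach a change of 2-fold in either direction for Cd84 and Ly9.

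Slamf7 is a self-binding receptor of NK cells, plasma cells and cytotoxic T cells, and in mice it signals through the SAP relative EAT-2 and not through SAP. Its normalized read counts were 1013, 341 and 350 in WT and 47.3, 160 and 168 in the libraries labelled Bach2-cKO. WT replicate 1 stood far above the other WT libraries and replicate 1 labelled Bach2-cKO far below its group, while the other libraries of each group lay close together, and the groups did not overlap. The means were 568 ± 385 and 125 ± 67.5 (SD, n = 3 each), and the second was 22.0% of the first. The log2 fold change was -2.18 (SE 0.56, 95% confidence interval -3.42 to -0.94), with adjusted p = 0.141. Slamf7 had the largest fold change of the 8 genes. Without WT replicate 1 this was -1.66 (adjusted p = 0.151), and without replicate 1 labelled Bach2-cKO it was -1.59 (adjusted p = 0.507). The 32 reads recovered for Slamf7 in replicate 1 labelled Bach2-cKO compare with 239 and 164 in replicates 2 and 3, so that counting error adds most to that library. Slamf7 lies at chr1:171632403-171653035 on the minus strand, and Gm37787 on the other strand and Mir7683 share that span.

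Because Slamf7 is also a receptor of other cell types, the marker lists were read beside it. Of the NK or cytotoxic list, 10 of 10 genes were in the table, and their summed normalized read counts were 6486, 4497 and 3338 in WT and 1497, 5366 and 2320 in the libraries labelled Bach2-cKO. The median log2 fold change of the list was 0.62. At an unadjusted limma p under 0.05, 2 of its 10 genes were lower (Nkg7 and Eomes, background 10.2%) and 1 higher (Gzmb, background 10.1%). Without WT replicate 1 the median was -0.18. At that p, Nkg7 at -0.89 and Klrb1c at -1.44 were then lower (background 9.43%) and Gzmb at 1.62 higher (background 9.79%). Eomes at -1.06 was no longer under that p. The most abundant gene of that list, Nkg7, a granule protein, stood at 5536, 2907 and 2633 in WT and at 962, 2417 and 1432 in the libraries labelled Bach2-cKO. Eomes, a transcription factor of NK and cytotoxic T cells, stood at 507, 155 and 72.8 in WT and at 34.0, 131 and 28.6 in the libraries labelled Bach2-cKO. WT replicate 1 was the highest library for Slamf7, Nkg7, Eomes and the pore-forming Prf1 (200 normalized read counts, against 6.14 to 42.6 elsewhere), and replicate 1 labelled Bach2-cKO was the lowest for Slamf7 and Nkg7. The granzymes had positive log2 fold changes, and Gzmb (3.05, adjusted p = 0.177) and Gzma (1.15, adjusted p = 0.413) were lowest in WT replicate 1, at 2.02 and 107 normalized read counts. The NK receptors Ncr1, Klrk1 and Klrd1 were at 0 in WT replicate 1, where Slamf7 was highest, and were highest in replicate 2 labelled Bach2-cKO, while the receptors Klrb1c and Klre1 stood at 115 and 19.2 in WT replicate 1. Of the plasma cell list, 6 of 6 genes were in the table, with sums of 1905, 30254 and 8359 in WT and 3132, 1424 and 1535 in the libraries labelled Bach2-cKO, and Jchain was its most abundant gene. In WT replicate 1, which had the fewest genes above 0, Sdc1, Tnfrsf17 and Derl3 of that list were at 0, and Xbp1 was at 1588, its highest value. The part of cytotoxic cells and of plasma cells in the Slamf7 difference was not tested.

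**Figure D2:**
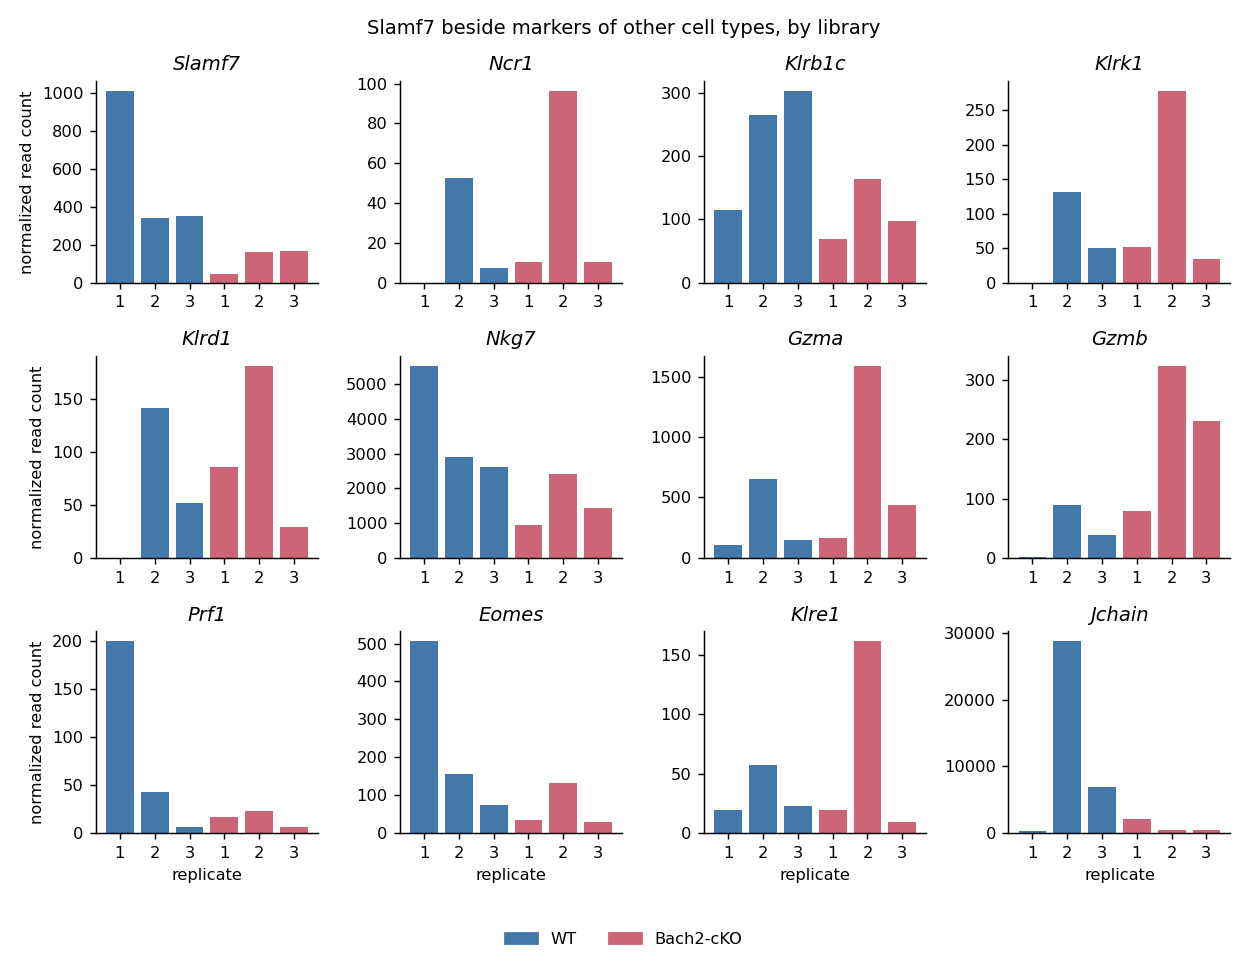
Normalized read counts (y axis, from 0) of Slamf7, of all 10 genes of the NK or cytotoxic list and of Jchain, which leads the plasma cell list, in replicates 1, 2 and 3 of WT and of the libraries labelled Bach2-cKO. Slamf7, Nkg7, Eomes and Prf1 are highest in WT replicate 1, where Ncr1, Klrk1 and Klrd1 are at 0 and Gzma and Gzmb are lowest.

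The remaining lists were read beside all 8 genes. Sums over the 6 genes of the Treg or Tfr list, led by Ikzf2, were 6506, 6940 and 8687 in WT and 6958, 5898 and 5271 in the libraries labelled Bach2-cKO, and within it Foxp3 stood at 222, 315 and 344 in WT and at 47.3, 140 and 91.0 in the libraries labelled Bach2-cKO. The T cell list, led by Cd3d, summed to 58151, 61385 and 77420 in WT and to 55064, 53664 and 59203 in the libraries labelled Bach2-cKO, and so WT replicate 3, the highest library for Sh2d1a, Slamf6, Slamf1 and Cd48, was the highest here too. The Tfh list, led by Maf, summed to 15020, 18754 and 24905 in WT and to 21775, 16917 and 18759 in the libraries labelled Bach2-cKO. Sums of the B cell list, led by Cd79b, ran from 289 to 912 in WT and from 396 to 526 in the libraries labelled Bach2-cKO. Those of the macrophage or dendritic list, led by Cst3, were 5727, 12800 and 7385 in WT and 5322, 10132 and 4506 in the libraries labelled Bach2-cKO. Naive T cell sums, led by Tcf7, ran from 9925 to 13359 in WT and from 13133 to 16298 in the libraries labelled Bach2-cKO. The CD8 T cell list, led by Cd8b1, ran from 176 to 786 and from 332 to 413, and the NKT list, led by Klrb1c, from 115 to 304 and from 76.9 to 181. At an unadjusted limma p under 0.05, 1 of 8 tested T cell genes was lower (Cd3e, background 10.2%) and 2 higher (Cd4 and Thy1, background 10.1%). For the Tfh list, 1 of 11 was lower (Icos) and 2 higher (Bcl6 and Tox2). Of 6 Treg or Tfr genes, 2 were lower (Foxp3 and Tnfrsf18) and 0 higher. Lower were 1 of 8 tested B cell genes (Ms4a1) and 2 of 9 macrophage or dendritic genes (Cd68 and Fcgr1), with 0 higher. Of 8 naive T cell genes, 1 was lower (Ccr7) and 2 higher (Tcf7 and Satb1). The part of these cell types in the values of the SLAM genes was not tested.

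Cd244, known as 2B4, is the receptor for CD48 and is best known on NK cells and CD8 T cells. It was the least abundant of the 8 genes, at 51.5, 57.2 and 27.0 normalized read counts in WT and 7.39, 38.9 and 18.4 in the libraries labelled Bach2-cKO. Replicate 2 labelled Bach2-cKO exceeded WT replicate 3, so the groups overlapped. The log2 fold change was -1.24 (SE 0.76, 95% confidence interval -2.92 to 0.44), with an adjusted limma p of 0.359, and it ran from -1.79 to -0.66 with 1 library left out at a time. Only 5 reads were recovered for Cd244 in replicate 1 labelled Bach2-cKO, and a difference was not detectable at this depth and spread. Its annotated span (chr1:171559193-171609746, plus strand, as Cd244a) holds Ly9 on the minus strand (chr1:171588624-171607410), so that without strand the values of this pair may share reads.

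Cd48 encodes the ligand of the family, which binds CD244 and, in mice, CD2. Its normalized read counts were 5409, 7075 and 8014 in WT and 3371, 4467 and 5131 in the libraries labelled Bach2-cKO. Each library labelled Bach2-cKO was below each WT library. The means were 6833 ± 1319 and 4323 ± 889 (SD, n = 3 each), and the second was 63.3% of the first. Cd48 thus had a log2 fold change of -0.66 (SE 0.23, 95% confidence interval -1.17 to -0.16), with adjusted p = 0.171. The unadjusted p was over 0.05 without WT replicate 3 and without replicate 1 labelled Bach2-cKO, with log2 fold changes of -0.54 and -0.49. With no trend in the variance it was over 0.05 as well. Across 11263 genes the log2 fold change rose with exon length (Spearman rho 0.26, a description over genes of the same 6 libraries), and Cd48 has the shortest exons of the 8 genes, 1189 bases in all. Once a smooth trend in exon length and GC content was removed from the libraries, Cd48 had a log2 fold change of -0.24, with an unadjusted p over 0.05 and adjusted p = 0.533. The same step left Slamf7 at -2.28 and brought Slamf6 to -0.83, with adjusted p = 0.226 and adjusted p = 0.228. Cd2, the T cell receptor for CD48 in mice, stood beside its ligand at 5445, 7100 and 9186 in WT and 3019, 4113 and 6013 in the libraries labelled Bach2-cKO, and its groups overlapped (log2 fold change -0.75, adjusted p = 0.192).

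Levels of the 8 genes were set against each other per kb of annotated exon. In WT the order of mean normalized read counts per kb was Cd48 at 5746 ± 1110, Sh2d1a at 1852 ± 533, Slamf6 at 816 ± 199, Cd84 at 255 ± 51.5, Ly9 at 154 ± 2.27, Slamf7 at 124 ± 84.2, Slamf1 at 94.2 ± 23.0 and Cd244 at 9.28 ± 3.29 (SD, n = 3 each). The ranges of Ly9 and Slamf7 overlapped, as did those of Slamf7 and Slamf1, and the other neighbours in that order had separate ranges. In the libraries labelled Bach2-cKO the order was Cd48 at 3636 ± 748, Sh2d1a at 1355 ± 342, Slamf6 at 543 ± 87.4, Cd84 at 267 ± 41.8, Ly9 at 158 ± 16.7, Slamf1 at 72.2 ± 8.54, Slamf7 at 27.3 ± 14.7 and Cd244 at 4.42 ± 3.28 normalized read counts per kb (SD, n = 3 each). Here no neighbours overlapped in range. Slamf7 was above Slamf1 in the WT means because of WT replicate 1, at 221 against 76.4 per kb, while it was below Slamf1 in WT replicate 2 (74.5 against 86.0) and WT replicate 3 (76.6 against 120). Without WT replicate 1 their WT means were 75.5 and 103, the same order as in the libraries labelled Bach2-cKO. The order in each group was the same per kb of the longest transcript. Summed over the 7 receptor genes and not scaled for length, normalized read counts were 15642, 18650 and 22643 in WT. They were 12045, 12324 and 14599 in the libraries labelled Bach2-cKO, without overlap. Slamf6 and Cd48 supplied 82.2% ± 2.93 of that sum in WT and 78.3% ± 3.40 in the libraries labelled Bach2-cKO (SD, n = 3 each). Each of them was itself lower without overlap, so the sum mostly follows these genes and does not describe the whole family.

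The profiles over the 6 libraries were then compared between genes, as the mean absolute difference of centred log2 values, over 8951 other genes with a mean of at least 50. Nearest to Sh2d1a were Galnt9 at 0.0331, Ripk2 at 0.0530 and Vps45 at 0.0994, and Slamf6 lay at 0.108, with 10 of the 8951 genes nearer. Nearest to Slamf6 were Nfyb at 0.0702, Gtf2h2 at 0.0711 and Gimap9 at 0.0748, with 24 genes nearer than Sh2d1a. Among the members, Cd48 came next after Sh2d1a, at 0.153 from Slamf6 with 126 genes nearer, and then Slamf1, at 0.172 with 221 genes nearer. Slamf7 lay at 0.824 from Slamf6 and at 0.926 from Sh2d1a, with 7932 and 8359 genes nearer. Ly9 and Cd84 lay at 0.307 and 0.355 from Slamf6, with 1737 and 2546 genes nearer. SAP and its receptor Slamf6 thus had profiles close to each other, and that of Slamf7 stood apart. The measure grows with the size of a gene's changes, and Slamf7 had the largest fold change of the members. All profiles share the same 6 libraries and their size factors.

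Since the 7 receptor genes share a locus, the other genes within it and up to 500 kb to either side were read beside them. Of the 40 genes of that region in the table, 26 besides the receptors were tested, and their median log2 fold change was 0.04, against -0.57 for the 7 receptor genes and 0.08 for all tested genes. At an unadjusted limma p under 0.05, 1 of the 26 was lower (background 10.2%), Sdhc with a log2 fold change of -0.71 (adjusted p = 0.168), and 3 were higher (background 10.1%), Dcaf8 with 0.93 (adjusted p = 0.146), Arhgap30 with 0.77 (adjusted p = 0.156) and Pigm with 1.13 (adjusted p = 0.171). Without overlap between the groups, 5 of the 26 were lower (background 12.2%) and 5 higher (background 14.6%). Between the outermost receptor genes, 1 other gene was tested, Tma7-ps, at 0.04. Within the cluster, the receptors that were lower, Slamf7, Cd48 and Slamf6, were interspersed with Slamf1 and Cd84, which did not pass.

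**Figure D3:**
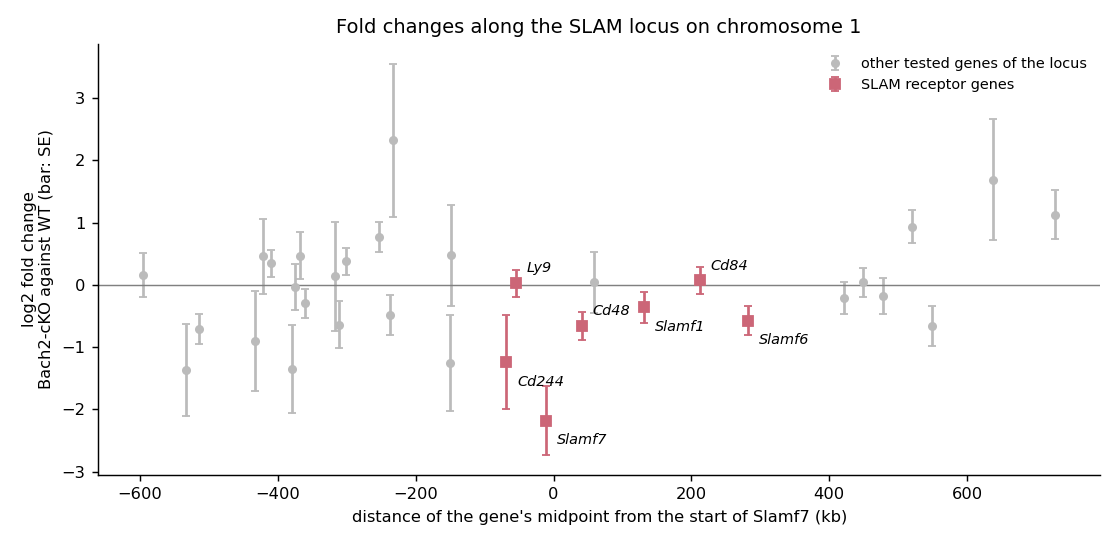
Log2 fold change of the libraries labelled Bach2-cKO against WT (y axis, bars SE) for the 7 receptor genes (squares) and 26 other tested genes (circles), by distance of the midpoint of the gene from the start of Slamf7 in kb (x axis). Slamf7 at -2.18 lies lowest, and the other genes lie on both sides of 0 with a median of 0.04.

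Partners of the pathway were taken from a list of 23 genes, of which 22 were in the table and 21 were tested. Their median log2 fold change was 0.19, and at an unadjusted limma p under 0.05, 2 were lower (Cd2, and Ptpn22 at -0.52, background 10.2%) and 5 higher (background 10.1%), with 0 past an adjusted p of 0.05. Without overlap between the groups, 4 were lower (background 12.2%) and 4 higher (background 14.6%). Fyn, the kinase that SAP recruits, stood at 1879, 2503 and 2744 normalized read counts in WT and at 3714, 2806 and 3229 in the libraries labelled Bach2-cKO. Its groups did not overlap, with a log2 fold change of 0.46 (adjusted p = 0.249). Sh3bp2 at -1.09, Nck1 at -0.39 and Bcl10 at -0.45, of the same list of kinases and activating partners, were lower without overlap, with adjusted p = 0.272, adjusted p = 0.273 and adjusted p = 0.276. Csk, the kinase that holds Src family kinases such as Fyn inactive, stood at 553, 656 and 782 in WT and at 1440, 1176 and 1109 in the libraries labelled Bach2-cKO. It was higher without overlap (log2 fold change 0.91, adjusted p = 0.141). Among the phosphatases that bind SLAM receptors when SAP does not, the log2 fold change of Ptpn11 (SHP-2) was 0.76 (adjusted p = 0.151), that of Inpp5d (SHIP-1) 0.76 (adjusted p = 0.227) and that of Ptpn6 (SHP-1) 0.11 (adjusted p = 0.755). Other partners higher at an unadjusted p under 0.05 were the adaptor Cd2ap at 0.65 (adjusted p = 0.170) and the exchange factor Vav1 at 0.65 (adjusted p = 0.244). Lck, which can act in place of Fyn, was at -0.19 (adjusted p = 0.589). The SAP relative Sh2d1b1 (EAT-2), the adaptor of Slamf7, was between 0 and 5.91 normalized read counts in all libraries and was not tested. Slamf8 and Slamf9, family members outside the cluster, were at -0.23 and -0.10, with adjusted p = 0.851 and adjusted p = 0.950.

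**Figure D4:**
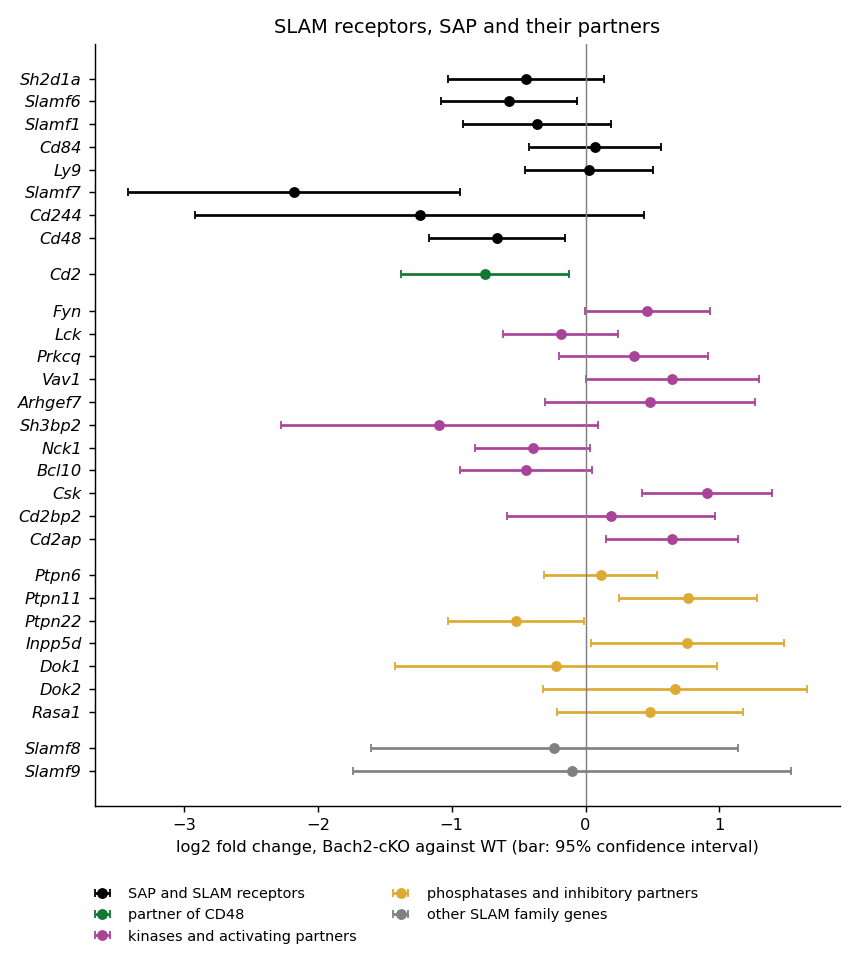
Log2 fold changes of the libraries labelled Bach2-cKO against WT (x axis) with 95% confidence intervals from limma, for SAP and the 7 SLAM receptor genes (black) and the 21 tested partners (colours by role). The intervals of Slamf6, Slamf7 and Cd48 lie below 0, that of Slamf7 from -3.42 to -0.94.

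Across 20 settings, including other pseudocounts, filters, scalings, variance models and tools and each library left out, the log2 fold changes of Slamf7, Cd48, Slamf6, Sh2d1a and Slamf1 were negative in 20 of 20, and so was that of Cd244 in the 19 that gave it a value. For Slamf7 they ran from -2.49 to -1.40, for Cd48 from -0.83 to -0.24, for Slamf6 from -0.96 to -0.39, for Sh2d1a from -0.99 to -0.22, for Slamf1 from -0.54 to -0.17 and for Cd244 from -1.79 to -0.16. Cd84 was negative in 5 of 20 and Ly9 in 1 of 20. With a weight for each library, which gave WT replicate 1 the lowest weight, 0.206, and replicate 2 labelled Bach2-cKO the highest, 5.54, Slamf7 passed both thresholds at -1.40 (adjusted p = 0.00515). In that setting Slamf6 at -0.96, Sh2d1a at -0.99 and Cd48 at -0.80 had adjusted p = 0.000712, adjusted p = 0.0015 and adjusted p = 0.00124 with changes of less than 2-fold, so that 4 of the 8 genes were lower at an adjusted p under 0.01, where the background was 10.7%. Past both thresholds, 567 of all tested genes were called lower and 561 higher. The other libraries labelled Bach2-cKO had weights of 0.791 and 0.421, so this setting rests largely on replicate 2 of that group. Over the settings, adjusted p ran from 0.00515 to 0.507 for Slamf7, from 0.00124 to 0.568 for Cd48 and from 0.000712 to 0.539 for Slamf6. The lowest value of each came from the library weights. The settings reuse the same libraries and are not independent of each other.

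**Figure D5:**
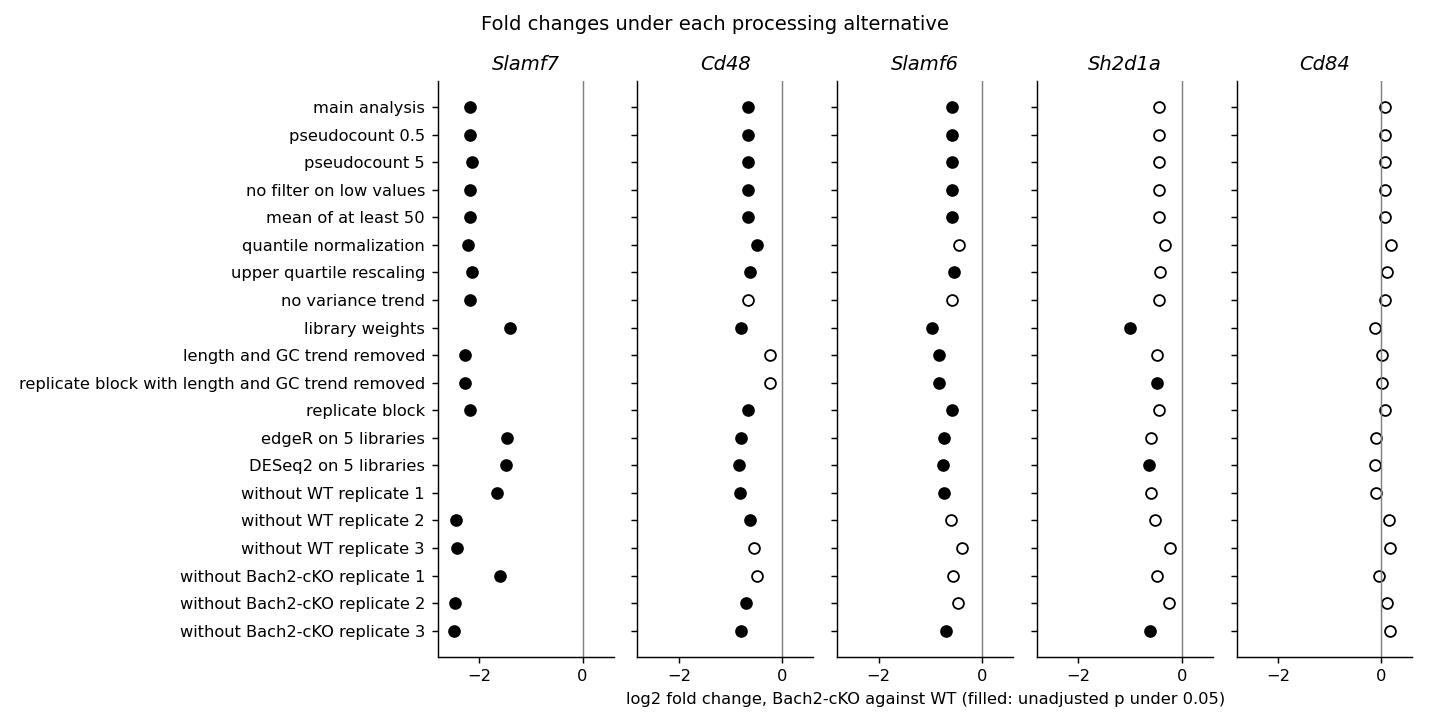
Log2 fold change (x axis) of Slamf7, Cd48, Slamf6, Sh2d1a and Cd84 in the main analysis and under 19 alternatives (y axis), with filled circles for an unadjusted p under 0.05. Slamf7 lies between -2.49 and -1.40 throughout, and Cd48 between -0.83 and -0.24, its value where the trend in length and GC content was removed.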

How the data were processed

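The authors aligned the reads (Tophat2 in the paper's methods, STAR 2.5.2b in the submitters' processing notes, which also name GRCm38, R 3.5.1 and DESeq2 1.20.0), counted them per gene with HTSeq per the paper, and deposited a normalized read count, here treated as a signal, for 14744 symbols. From these, log2(value + 1) was tested with limma 3.58.1 (R 4.3.3) with a trended variance over 11296 genes, with Benjamini-Hochberg adjustment. The log2(value + 1) scale understates changes of low genes. Values of each library were whole multiples of 1 step (100% within 0.01). Recovered reads of 5 libraries were tested with edgeR 4.0.16 and DESeq2 1.42.0. WT replicate 1 was left out of these tests only. Its step of 1.01 was judged too near a power of 10 for the check of recovered reads, although its values were whole multiples of that step. Replicate 3 labelled Bach2-cKO, with a step of 1.02, was kept. DESeq2 called 60 genes lower and 35 higher past the thresholds, edgeR 0 in each direction. Lengths, GC content and positions came from GENCODE M21 on GRCm38 (13313 symbols matched exactly, 1016 with other capitals, 361 by another name, 54 unmatched), and the length trend used mgcv 1.9.3. The scripts were tested on simulated data. Strand use in counting is not given in the sources used here. Named genes were all members, pathway genes with a role, Bach2, the 3 nearest profiles of Sh2d1a and Slamf6, leading marker genes and locus genes at an unadjusted p under 0.05. Il4, Gata3 and other marker genes (Eomes, Foxp3, Prf1, granzymes, NK receptors, plasma cell genes) were named after their values were seen. So were the genes of the remaining marker lists at an unadjusted p under 0.05. Members and lists were chosen with earlier results of these data known.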

Additional observations from a re-analysis of the deposited data

How the results depend on the processing

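No alternative reversed the direction of Slamf7, Cd48, Slamf6, Sh2d1a, Slamf1 or Cd244. Cd84, at 0.07, turned negative with library weights (-0.12), edgeR (-0.10) and DESeq2 (-0.13) on 5 libraries, and Ly9, at 0.03, only without replicate 2 labelled Bach2-cKO (-0.0493). With 1 library left out at a time, log2 fold changes ran from -0.62 to -0.22 for Sh2d1a, -0.50 to -0.17 for Slamf1, -0.73 to -0.39 for Slamf6, -2.49 to -1.59 for Slamf7, -0.05 to 0.10 for Ly9, -0.11 to 0.17 for Cd84, -0.82 to -0.49 for Cd48 and -1.79 to -0.66 for Cd244. Without replicate 1 labelled Bach2-cKO, Cd84 was at -0.05.

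Past an adjusted p of 0.01 and 2-fold, limma called 0 of the 8 genes lower. It called 1 (Slamf7, at -1.40, adjusted p = 0.00515) with library weights, and 3 were lower at an unadjusted p under 0.05. Over all tested genes, 567 were called lower and 561 higher with library weights, 60 and 35 with DESeq2, and 1157 and 1144 at an unadjusted p under 0.05. The count of the 8 genes lower at an unadjusted p under 0.05 was 1 without a variance trend (7.83% of all tested genes there), 5 with library weights (22.8%), and from 1 (without WT replicate 3, 791 of 11296 genes, or without replicate 1 labelled Bach2-cKO, 5.36%) to 4 (without replicate 3 labelled Bach2-cKO, 14.0%) with 1 library left out. It was 3 in the main fit (10.2%). Bach2 passed both thresholds with library weights at 2.36 and with DESeq2 at 1.81. The cause of these shifts was not tested.

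With the replicate number as a block, the log2 fold changes were unchanged, and adjusted p was 0.221 for Slamf7, 0.219 for Cd48 and 0.238 for Slamf6, with 0 genes called. Deviations of libraries with the same number correlated at -0.07, 0.12 and -0.04, so the numbers were not taken as pairs. Cd244 had no value under a mean of at least 50. Recovered reads of Cd244 were as few as 5 in a library, and those of Slamf7 as few as 32.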
